A study of Saccharomyces cerevisiae with 4 samples.

Results

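The genes described here are 9 yeast genes whose RNA was read almost wholly from 1 of 2 parental alleles: DNF2 (YDR093W), RSC3 (YDR303C), YJR142W, IPA1 (YJR141W), PTK1 (YKL198C), YBT1 (YLL048C), ROF1 (YHR177W), YAF9 (YNL107W) and SLH1 (YGR271W). They were chosen from 4442 orthologous gene pairs because the reads of the BY allele and of the RM allele differed by 8-fold or more in both kinds of culture. The allele ratios of these 9 genes therefore describe the choice and were given no test. BY reads were in excess for 7 of the 9 genes, and RM reads were in excess for PTK1 and SLH1.

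The hybrid was an a/alpha diploid labelled BY4741xRM11-1alpha, in which both alleles share a nucleus. It was set against a mixed culture of 2 haploids of mating type a, labelled BY4741+RM11-1a and called the co-culture here, in which each allele is read from its own cells. Each kind of culture has 2 RNA libraries, and the labels describe the cultures as technical replicates. The p-values therefore cover at most the spread between these libraries. All cultures were grown alike and harvested at the same cell density, and no drug or other treatment is named. BY4741 is a laboratory strain of the S288C lineage, and RM11 descends from a vineyard isolate. The hybrid is a single strain in the labels, so the values do not average over independent crosses.

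The hybrid libraries held 2809121 and 4183129 allele-assigned reads, and the co-culture libraries 2692044 and 3143817. BY reads made up 49.5% to 49.6% of every library. The mating type of the libraries was checked with marker genes. Of 5 a-cell genes, the 4 measured (STE2, MFA1, STE6 and BAR1) were all lower in the hybrid by edgeR, with a summed level of 92.6 and 94.2 CPM (reads scaled to 1e6 reads of the library) in the hybrid against 6711 and 6819 CPM in the co-culture. Of 8 haploid-specific genes, the 6 measured (GPA1, STE18, FUS3, FAR1, RME1 and NEJ1) were all lower as well, with a sum of 100.03 and 112 CPM in the hybrid against 1330 and 1345 CPM in the co-culture. None of these 10 genes was at 0 in every hybrid library.

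An allele-specific count rests on single-base differences between parental genomes: a read is given to an allele by the base it carries. In a hybrid, both alleles meet the same regulatory proteins, so an imbalance there is commonly read as a difference linked to the gene itself, while a co-culture also carries differences between the parental cells. Counts of this kind also depend on how well reads of each parent can be placed and on which sites are counted. Which sites were used for each gene is not given in the sources used here.

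The 9 genes have unrelated roles. DNF2 is a flippase, a P-type ATPase that moves phospholipids to the inner face of the plasma membrane, and YBT1 is an ATP-driven transporter of the vacuole membrane that carries bile acids. PTK1 is a protein kinase linked to polyamine uptake. RSC3 is a DNA-binding subunit of the chromatin remodeller RSC, and YAF9 is a histone-reading subunit shared by the NuA4 acetyltransferase and the SWR1 remodeller. ROF1 is a putative transcription factor with a WOPR domain. IPA1 acts in the cleavage and polyadenylation of pre-mRNA, SLH1 is an RNA helicase that splits stalled ribosomes, and YJR142W is a Nudix-family hydrolase. RSC3 is an essential gene in laboratory yeast.

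In the R64 reference genome, which is that of S288C and so of the BY lineage, the 9 genes lie on chromosomes IV (DNF2 and RSC3), VII (SLH1), VIII (ROF1), X (IPA1 and YJR142W), XI (PTK1), XII (YBT1) and XIV (YAF9). IPA1 (chrX:695906-696949) and YJR142W (chrX:697141-698169) are direct neighbours on the plus strand, separated by 191 bases. The coding sequence of each gene is 1 exon, and none overlaps another annotated gene. The sequences around 4 start codons are shown because they carry the contrasts described below: the neighbours IPA1 and YJR142W, YBT1 as the most deeply read gene, and PTK1 as the more lopsided of the 2 genes on the RM side. Each runs 5′ to 3′ on the gene's own strand, from 250 bases before the start codon to 50 bases from its first base on, in R64.
IPA1, chrX:695656-695955, plus strand: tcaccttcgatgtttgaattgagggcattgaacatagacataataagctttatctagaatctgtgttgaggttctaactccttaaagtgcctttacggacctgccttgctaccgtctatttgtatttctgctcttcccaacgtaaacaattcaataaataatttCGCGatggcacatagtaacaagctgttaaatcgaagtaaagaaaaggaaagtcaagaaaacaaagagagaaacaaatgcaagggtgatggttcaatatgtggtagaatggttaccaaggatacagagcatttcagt
YJR142W, chrX:696891-697190, plus strand: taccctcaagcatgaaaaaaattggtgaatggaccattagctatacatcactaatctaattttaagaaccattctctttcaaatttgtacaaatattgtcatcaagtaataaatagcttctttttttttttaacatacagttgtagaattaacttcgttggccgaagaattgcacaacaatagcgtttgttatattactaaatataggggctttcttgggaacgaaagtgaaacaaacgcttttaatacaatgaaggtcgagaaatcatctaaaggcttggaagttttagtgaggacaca
YBT1, chrXII:46216-46515, minus strand: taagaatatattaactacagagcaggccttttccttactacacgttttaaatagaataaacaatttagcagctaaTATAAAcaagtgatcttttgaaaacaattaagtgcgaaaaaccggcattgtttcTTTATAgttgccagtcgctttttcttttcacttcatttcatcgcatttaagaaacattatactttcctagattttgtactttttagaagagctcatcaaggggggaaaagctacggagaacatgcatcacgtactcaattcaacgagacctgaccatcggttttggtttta
PTK1, chrXI:70171-70470, minus strand: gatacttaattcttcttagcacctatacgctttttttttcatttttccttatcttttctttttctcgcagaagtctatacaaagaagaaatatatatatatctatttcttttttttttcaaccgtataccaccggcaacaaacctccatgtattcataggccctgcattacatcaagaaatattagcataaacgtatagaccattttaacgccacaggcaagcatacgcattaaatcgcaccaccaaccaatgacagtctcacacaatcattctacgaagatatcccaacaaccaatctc
The YJR142W stretch begins inside the end of the IPA1 coding sequence. Capitals mark matches on either strand to the 3 motifs searched, which were TATAAA (the TATA box), TTACCCG (a site of the factor Reb1) and CGCG (the core bound by Rsc3). Of 4323 windows of this kind, 43.4% held TATAAA, 7.19% held TTACCCG and 26.6% held CGCG. Among the 9 genes, TATAAA was in the windows of YBT1, ROF1 and YAF9, TTACCCG in those of ROF1 and SLH1, and CGCG in that of IPA1. TATAAA matched on each strand in the windows of YBT1 and YAF9, and none of the 3 motifs was in the windows of PTK1, YJR142W, DNF2 and RSC3. These are matches in the S288C-type sequence, and the RM sequence was not used here.

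The membrane proteins DNF2 and YBT1 differed in how complete the imbalance was. DNF2 had 189 and 310 BY reads against 0 RM reads in the hybrid libraries, and 210 and 225 BY reads against 0 RM reads in the co-culture libraries. No RM read of DNF2 was found in any of the 4 libraries. A count of 0 among 499 hybrid reads allows an RM share of up to 0.601%, and 0 among 435 co-culture reads up to 0.690%, taking 3 reads as the floor. After each allele column was scaled to its total, BY was at least 169-fold higher than RM in the hybrid and at least 148-fold higher in the co-culture, with the 0 set at this floor over the culture.

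YBT1 was the most deeply read of the 9 genes, so its minor allele could be measured. It had 1413 and 2067 BY reads against 25 and 32 RM reads in the hybrid, and 1228 and 1404 BY reads against 22 and 13 RM reads in the co-culture. Both alleles were seen in every library. RM reads made up 1.61% of the hybrid reads (95% Wilson interval 1.25% to 2.08%) and 1.31% of the co-culture reads (0.945% to 1.82%). The fold of BY over RM was 62.1 in the hybrid, against 76.6 in the co-culture. Intervals and floors cover counting error only, because amplified reads without molecular tags are not independent molecules.

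PTK1 was the counterpart of DNF2 on the RM side. It had 206 and 424 RM reads against 0 BY reads in the hybrid, and 172 and 264 RM reads against 0 and 2 BY reads in the co-culture. The single library with any BY read was co-culture replicate 2. A count of 0 among 630 hybrid reads allows a BY share of up to 0.476%. RM was at least 207-fold higher than BY in the hybrid, against 214-fold higher in the co-culture, with a counting interval of 58.9 to 1772 for the co-culture value.

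The chromatin subunits RSC3 and YAF9 were both read from BY. RSC3 had 241 and 308 BY reads against 1 and 0 RM reads in the hybrid, and 219 and 259 BY reads against 2 and 0 RM reads in the co-culture. The second library of each culture held no RM read of RSC3, while RM reads of other genes were counted in both. RM reads made up 0.182% of the hybrid reads (0.0321% to 1.02%) and 0.417% of the co-culture reads (0.114% to 1.51%). YAF9 had 49 and 110 BY reads against 1 and 2 RM reads in the hybrid, and 59 and 87 BY reads against 4 and 2 RM reads in the co-culture. Its RM share was 1.85% in the hybrid (0.632% to 5.30%) and 3.95% in the co-culture (1.82% to 8.34%).

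The neighbours IPA1 and YJR142W were both read mostly from BY. YJR142W had 124 and 163 BY reads against 1 and 0 RM reads in the hybrid, and 147 and 180 BY reads against 0 and 1 RM reads in the co-culture. The RM share was 0.347% in the hybrid (0.0613% to 1.94%) and 0.305% in the co-culture (0.0538% to 1.71%). IPA1 had 53 and 78 BY reads against 8 and 4 RM reads in the hybrid, and 63 and 81 BY reads against 6 and 2 RM reads in the co-culture. Every library held RM reads of IPA1, and its RM share was 8.39% in the hybrid (4.87% to 14.1%) and 5.26% in the co-culture (2.69% to 10.04%).

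The regulator ROF1 had 74 and 106 BY reads against 3 and 6 RM reads in the hybrid, and 64 and 69 BY reads against 0 and 3 RM reads in the co-culture. Its RM share was 4.76% in the hybrid (2.53% to 8.80%) and 2.21% in the co-culture (0.753% to 6.28%). SLH1 had 84 and 123 RM reads against 10 and 8 BY reads in the hybrid, and 113 and 96 RM reads against 8 and 5 BY reads in the co-culture. Its BY share was 8.00% in the hybrid (5.12% to 12.3%) and 5.86% in the co-culture (3.45% to 9.76%). SLH1 and IPA1 thus had the highest minor-allele shares among the 9 genes, and reads of the minor allele in every library.

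**Figure D1:**
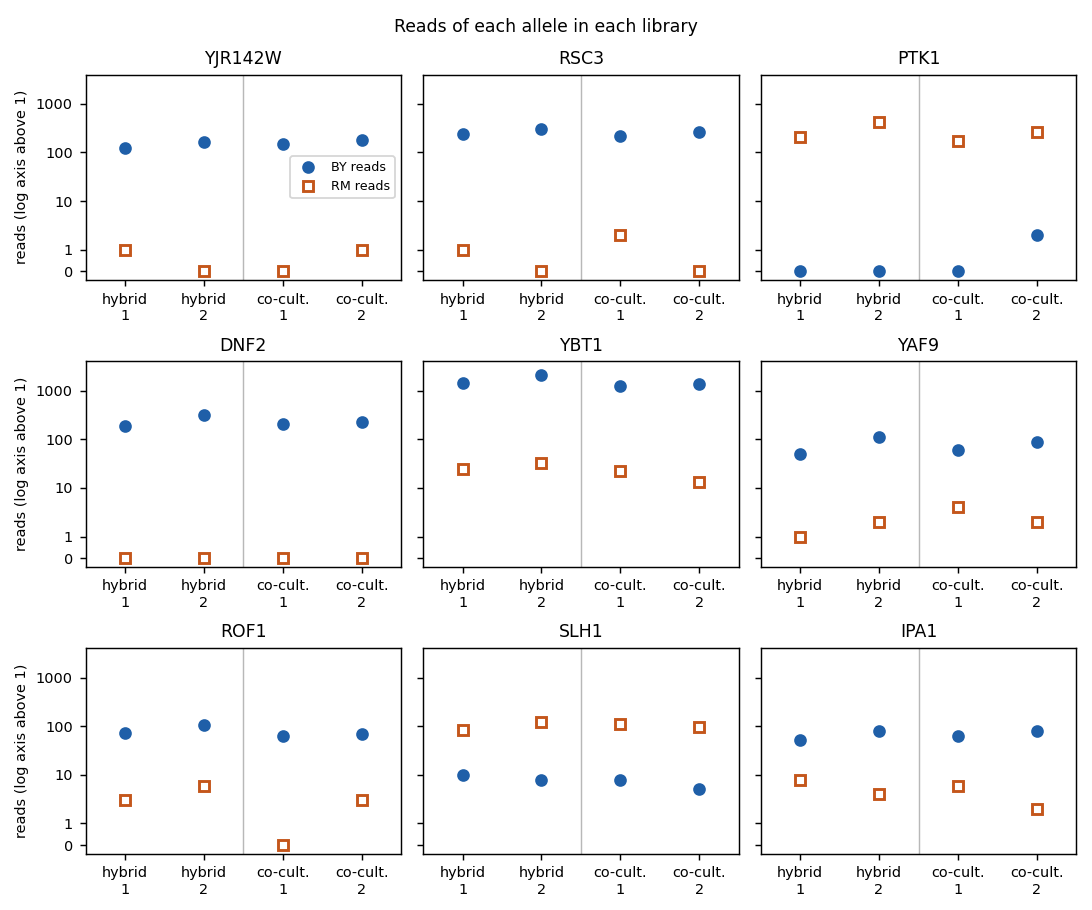
Reads of the BY allele (filled circles) and the RM allele (open squares) of each gene in each library, on a log axis above 1 read with 0 drawn below it; genes run by the smaller of their allele ratios in the hybrid and the co-culture. DNF2 has 0 RM reads in all 4 libraries, while IPA1 and SLH1 have between 2 and 10 reads of the minor allele in each library.

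Ordered by the smaller of the fold in the hybrid and the fold in the co-culture, the values ran from 292 for YJR142W through 244 for RSC3, 207 for PTK1, 148 for DNF2, 62.1 for YBT1, 24.8 for YAF9 and 20.3 for ROF1 to 11.3 for SLH1 and 11.1 for IPA1. The values of PTK1 and DNF2 in this order are lower bounds. The 9 genes were chosen for these values, so the order is a description with no test. The counting intervals of YJR142W, RSC3, PTK1 and DNF2 overlap one another in each culture, and so do those of SLH1 and IPA1. In 12 of 36 gene and library pairs no read of the minor allele was found, and 8 of the 9 genes were at 8-fold or more in every library. The exception was IPA1, at 6.73-fold in hybrid replicate 1 and 19.8-fold in hybrid replicate 2.

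The threshold of 8-fold fell inside a continuous range, and the 9 genes are a chosen subset of those past it. In all, 21 of the 4442 gene pairs (0.473%) passed it in both cultures in the same direction, 17 toward BY and 4 toward RM. The values just inside it were 8.05 for ERG29 and 8.24 for SYN8, and those just outside were 7.88 for RPN4 and 7.51 for LRG1 and YIL058W. At 4-fold the count was 54 genes, and at 16-fold it was 11 genes, 7 of them among the 9 described. Without hybrid replicate 2, 18 genes passed, including 8 of the 9, and without co-culture replicate 2, 18 passed, including all 9. The 12 other genes past 8-fold include RPL14B, with 2348 and 3320 BY reads against 66 and 132 RM reads in the hybrid and 2501 and 2857 against 41 and 55 in the co-culture. They also include MET17, which acts in methionine synthesis and is missing from the BY4741 genome. MET17 had 0 and 1 BY reads against 176 and 331 RM reads in the hybrid, and 0 and 0 BY reads against 234 and 299 RM reads in the co-culture. The minor-allele counts of PTK1, DNF2, RSC3 and YJR142W were between 0 and 2 in every library, and those of MET17 were 0 or 1. What lies behind the low counts of PTK1, DNF2, RSC3 and YJR142W was not tested. LYS2, a lysine synthesis gene, is a further case of an allele with no reads, in the hybrid alone. It had 872 and 1352 BY reads against 0 RM reads in the hybrid. In the co-culture it had 785 and 947 BY reads against 738 and 882 RM reads. The labels name different RM parents, RM11-1alpha for the hybrid and RM11-1a for the co-culture. What lies behind the 0 of LYS2 was not tested.

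**Figure D2:**
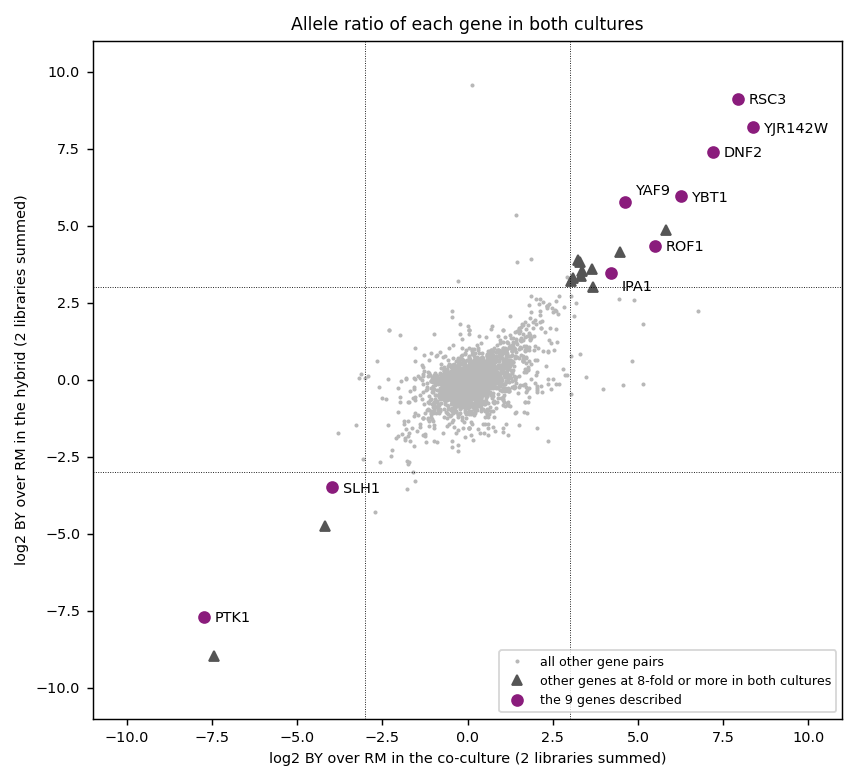
The log2 ratio of BY over RM of every gene pair in the co-culture (x axis) and in the hybrid (y axis), from reads summed over the 2 libraries of a culture and scaled to the allele totals, with an allele at 0 reads set at 3 reads; dotted lines mark 8-fold. The 9 genes lie in the upper right and lower left corners, with IPA1 at 3.47 and SLH1 at -3.50 in the hybrid nearest to the lines.

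The level of each gene in the hybrid against the co-culture did not enter the choice and was tested with edgeR's quasi-likelihood test over all genes. Of the 9 genes, 1 was higher (YBT1), 1 was lower (YJR142W) and 7 did not pass, whereas 35.7% of the 4327 genes tested passed (17.8% higher and 17.9% lower). The median log2 change was -0.04 over the 9 genes and -0.02 over all genes tested. In a bulk library, fewer cells of a strain and less RNA per cell cannot be told apart.

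YBT1 had 512 and 502 CPM in the hybrid libraries and 464 and 451 CPM in the co-culture libraries. Both hybrid values were above both co-culture values. The means were 507 ± 7.16 CPM in the hybrid and 458 ± 9.62 CPM in the co-culture (SD, n = 2 each), and the log2 change was 0.17 ± 0.06 (SE; adjusted p = 0.0198 by edgeR). The change passed with edgeR but not with DESeq2 (adjusted p = 0.151), nor without co-culture replicate 2 (0.152) or hybrid replicate 1 (0.141). The BY allele alone had 1014 and 997 CPM of the BY reads in the hybrid and 921 and 902 CPM in the co-culture, a log2 change of 0.21 ± 0.06 (adjusted p = 0.00580 by edgeR). That call was likewise lost with DESeq2 (0.0742) and without co-culture replicate 2 (0.0600). YBT1 was the single gene of the 9 whose minor allele had enough reads for the test: the RM allele had 17.7 and 15.2 CPM of the RM reads in the hybrid and 16.2 and 8.19 CPM in the co-culture, and its log2 change of 0.42 ± 0.34 did not pass (adjusted p = 0.401 by edgeR).

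YJR142W had 44.5 and 39.0 CPM in the hybrid libraries and 54.6 and 57.6 CPM in the co-culture libraries. Both hybrid values were below both co-culture values. The means were 41.7 ± 3.91 CPM in the hybrid and 56.1 ± 2.10 CPM in the co-culture (SD, n = 2 each), and the log2 change was -0.42 ± 0.14 (adjusted p = 0.0171 by edgeR). The BY allele changed by -0.37 ± 0.12 on the log2 scale (adjusted p = 0.0192 by edgeR). Neither call was kept with DESeq2 (adjusted p = 0.202 for the sum and 0.256 for the BY allele), without co-culture replicate 2 (0.0989 and 0.102) or without hybrid replicate 2 (0.215 and 0.245).

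Its neighbour IPA1 had 21.7 and 19.6 CPM in the hybrid and 25.6 and 26.4 CPM in the co-culture. The groups did not overlap, but the log2 change of -0.32 ± 0.19 did not pass (adjusted p = 0.191 by edgeR). ROF1 had 27.4 and 26.8 CPM in the hybrid against 23.8 and 22.9 CPM in the co-culture, again without overlap and without passing (0.24 ± 0.18; adjusted p = 0.329 by edgeR). Groups did not overlap for 4 of the 9 genes, against 65.5% of all genes tested. PTK1 had 73.3 and 101 CPM in the hybrid and 63.9 and 84.6 CPM in the co-culture, so the libraries of each culture differed more than the cultures did. Its log2 change of 0.28 ± 0.15 did not pass (adjusted p = 0.178 by edgeR). It was 0.49 without co-culture replicate 2 and 0.46 without hybrid replicate 1. Without co-culture replicate 1 it was 0.12, and without hybrid replicate 2 it was 0.01.

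For DNF2, RSC3, YAF9 and SLH1 the hybrid and co-culture libraries overlapped. DNF2 had 67.3 and 74.1 CPM in the hybrid against 78.0 and 71.6 CPM in the co-culture, and RSC3 had 86.1 and 73.6 CPM in the hybrid against 82.1 and 82.4 CPM in the co-culture. Their log2 changes were -0.04 ± 0.11 for DNF2 and -0.03 ± 0.11 for RSC3. For YAF9 the log2 change was -0.15 ± 0.19 and for SLH1 -0.22 ± 0.17, and the adjusted p of these 4 genes lay between 0.343 and 0.876 by edgeR. For the major allele alone, 7 of the 9 genes again did not pass, against 37.3% of genes that passed for the BY allele (19.5% higher and 17.8% lower) and 27.9% for the RM allele (13.8% higher and 14.1% lower). Major-allele levels of the groups did not overlap for 5 of the 9 genes, against 67.3% of genes for the BY allele and 61.0% for the RM allele. The RM allele of SLH1 had a log2 change of -0.30 ± 0.16 (adjusted p = 0.187 by edgeR). It was -0.53 without co-culture replicate 2, against -0.05 without co-culture replicate 1. Without hybrid replicate 1 it was -0.32, and without hybrid replicate 2 it was -0.27. These comparisons use the same 4 libraries and are not independent of each other.

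**Figure D3:**
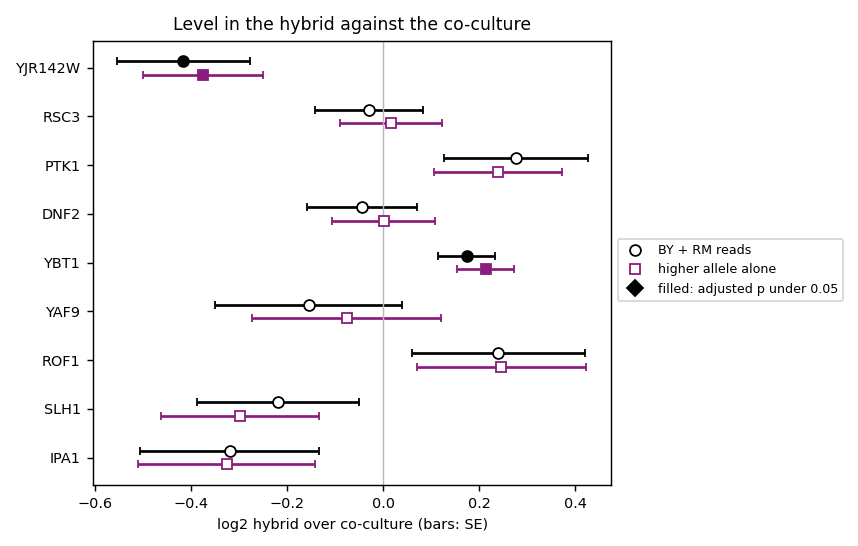
The log2 change in level in the hybrid over the co-culture for the summed reads (circles) and the major allele alone (squares) of each gene, with SE bars; filled symbols have an adjusted p under 0.05 in edgeR. YBT1 lies at 0.17 and YJR142W at -0.42 for the summed reads, and the other 7 genes are open.

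The genes next to the 9 were then compared between alleles. The nearest measured genes on either side gave 15 genes outside the 9 for this comparison, and their allele ratios took no part in the choice of the 9. In the hybrid, 2 of the 15 were higher from BY, 2 were higher from RM and 11 did not pass, where 28.9% of all 4269 genes tested passed (13.7% BY and 15.2% RM). In the co-culture, 3 were higher from BY, 4 were higher from RM and 8 did not pass, where 44.0% of all genes passed (20.6% BY and 23.4% RM). With DESeq2, and likewise without hybrid replicate 2, 1 of the 15 was higher from BY and 1 from RM in the hybrid. In the co-culture DESeq2 called 1 from BY and 2 from RM, and without co-culture replicate 1 there were 3 from BY and 2 from RM. The median size of their log2 ratios was 0.25 in the hybrid, against 0.38 in the co-culture, beside 0.17 in the hybrid for all genes tested, against 0.27 in the co-culture.

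COF1, which encodes cofilin, lies 865 bases from YBT1 and leaned the same way. It had 917 and 1535 BY reads against 301 and 382 RM reads in the hybrid, and 1242 and 1505 BY reads against 322 and 418 RM reads in the co-culture. Its log2 ratio was 1.86 ± 0.06 in the hybrid (adjusted p = 1.2e-182 by edgeR) and 1.84 ± 0.06 in the co-culture (adjusted p = 1.5e-192). RLI1, a ribosome recycling ATPase 2747 bases from DNF2, leaned toward RM, against the direction of DNF2, at -1.44 ± 0.26 in the hybrid (adjusted p = 3.3e-07 by edgeR) and -1.95 ± 0.32 in the co-culture (adjusted p = 6.8e-09). FPS1, the nearest measured gene on the other side of YBT1, was at 0.09 ± 0.17 in the hybrid, against 0.24 ± 0.19 in the co-culture. Neither ratio of FPS1 passed (adjusted p = 0.761 and 0.321 by edgeR). COF1 and RLI1 were the only ones of the 15 past 2-fold in either culture, and the share of all genes past 2-fold was not counted.

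MNN4, a regulator of mannose phosphate transfer in the cell wall that lies 765 bases from PTK1, leaned toward RM as PTK1 did. It was at -0.61 ± 0.13 in the hybrid (adjusted p = 1.2e-05 by edgeR), against -0.69 ± 0.12 in the co-culture (adjusted p = 4.4e-08). The hybrid call of MNN4 was lost with DESeq2 (adjusted p = 0.228) and without hybrid replicate 2, where its log2 ratio was -0.16 (0.714), and the ratio was -0.92 without hybrid replicate 1. On the other side of DNF2, the transcription factor gene GIS1 leaned toward BY at 0.53 ± 0.14 in the hybrid, against 0.47 ± 0.16 in the co-culture (adjusted p = 0.000977 and 0.0104 by edgeR). GIS1 passed in neither culture with DESeq2 (adjusted p = 0.421 in the hybrid, against 0.355 in the co-culture), nor without hybrid replicate 2 in the hybrid (0.31, adjusted p = 0.397) or without co-culture replicate 1 in the co-culture (0.31, adjusted p = 0.310).

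The pair IPA1 and YJR142W was bounded by genes whose ratio did not pass in the hybrid. HIR3, a gene of a histone regulation complex, is divided from IPA1 by 209 bases and runs the other way. It had 62 and 98 BY reads against 55 and 111 RM reads in the hybrid, and 64 and 91 BY reads against 57 and 55 RM reads in the co-culture, and neither ratio passed (-0.03 ± 0.17 in the hybrid, adjusted p = 0.934 by edgeR, against 0.41 ± 0.18 in the co-culture, adjusted p = 0.0595). Its co-culture ratio passed with a mean of at least 50 reads required (0.0413), with shared library totals (0.0287) and without co-culture replicate 1 (0.67, adjusted p = 0.0494). PMT4, a protein mannosyltransferase gene 156 bases beyond YJR142W, was at 0.02 ± 0.05 in the hybrid (adjusted p = 0.879 by edgeR) and -0.18 ± 0.06 in the co-culture (adjusted p = 0.00484). The co-culture call of PMT4 was lost with DESeq2 (adjusted p = 0.224), with shared library totals (0.0618) and without co-culture replicate 1, where its log2 ratio was -0.10 (0.342), and the ratio was -0.28 without co-culture replicate 2. EFG1, 105 bases from the end of SLH1, had 114 and 148 BY reads against 115 and 152 RM reads in the hybrid, and its ratio passed in neither culture.

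Close relatives of the 9 proteins were measured as separate genes. Searched against the other R64 proteins, 6 of the 9 had a match below an E value of 1e-10: DNF1 for DNF2 (68.9% identity), PTK2 for PTK1 (59.6%), VMR1 for YBT1 (50.4%), MIT1 for ROF1 (38.8%), BRR2 for SLH1 (34.1%) and RSC30 for RSC3 (26.0%). RSC30 was not analysed here, and YJR142W, IPA1 and YAF9 had no match. None of the 5 measured relatives reached 8-fold in either culture. Across all gene pairs, 0.473% reached it in both cultures in the same direction, and the share in either culture alone was not counted. DNF1 had 642 and 948 BY reads against 600 and 941 RM reads in the hybrid, and 645 and 751 BY reads against 527 and 578 RM reads in the co-culture. Its log2 ratio was 0.07 ± 0.06 in the hybrid (adjusted p = 0.444 by edgeR) and 0.28 ± 0.06 in the co-culture (adjusted p = 4.8e-05). The co-culture call of DNF1 was lost with DESeq2 (adjusted p = 0.0928) and without co-culture replicate 2 (0.0553). PTK2 leaned toward BY, the allele with hardly any PTK1 reads, at 0.18 ± 0.06 in the hybrid, against 0.18 ± 0.07 in the co-culture (adjusted p = 0.0130 and 0.0244 by edgeR). The PTK2 calls were lost with DESeq2 (adjusted p = 0.652 in the hybrid, against 0.463 in the co-culture) and without the library block (0.119 in the hybrid, against 0.0907). The hybrid ratio also did not pass without chromosome XIII genes (0.0508) or without hybrid replicate 2, where it was 0.07 (0.721), and the co-culture ratio did not pass when co-culture replicate 1 (0.0924) or co-culture replicate 2 (0.410) was left out.

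VMR1 was higher from BY in the hybrid, with 175 and 318 BY reads against 134 and 231 RM reads, and higher from RM in the co-culture, with 182 and 227 BY reads against 283 and 337 RM reads. The log2 ratios of 0.45 ± 0.10 in the hybrid, against -0.66 ± 0.09 in the co-culture, both passed, and so did their difference of 1.11 ± 0.14 (adjusted p = 1.3e-14 by edgeR), a test that 27.6% of all genes passed (14.3% with the hybrid ratio higher and 13.3% with it lower). The hybrid ratio of VMR1 by itself did not pass with DESeq2 (adjusted p = 0.147) or without hybrid replicate 2 (0.111). MIT1, a regulator of filamentous growth, leaned toward BY at 0.40 ± 0.07 in the hybrid, against 0.34 ± 0.07 in the co-culture (adjusted p = 6.2e-08 and 2.3e-05 by edgeR). The co-culture call of MIT1 was lost with DESeq2 (adjusted p = 0.0807) and without co-culture replicate 1, where its log2 ratio was 0.17 (0.180), and the ratio was 0.56 without co-culture replicate 2. The splicing helicase gene BRR2 passed in neither culture. Within the R64 genome, no window of 36, 50 or 75 bases of any of the 9 coding sequences occurred a second time. The longest run of bases that each gene shared with any other place ranged between 17 bases for YAF9 and 24 bases for YBT1.

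The 9 genes varied widely in base composition and in depth. PTK1, at 51.9% GC, had a higher GC content than 99.4% of genes, and RSC3, at 34.7%, was higher than 2.75% of genes, beside a median of 39.6%. Reads per kilobase of coding sequence, summed over alleles and averaged over libraries, ran between 18.9 for SLH1 and 311 for YBT1. The median gene had 204, and 8 of the 9 genes were below it. The 9 genes were chosen for having few reads of the minor allele, so their sums came almost wholly from the major allele. The comparison with the median gene is therefore not independent of the choice, and cannot show whether these genes are thinly read. Because reads were counted at variant sites only, the reads per kilobase also depend on how many sites a gene has. The part of depth in the ratios was not tested.

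Genes grouped with 8 of the 9 proteins, all but YJR142W, were compared as lists and are called partners here. The lists hold subunits of the same complex, genes of the same process and members of the same protein family. DNF1, PTK2, VMR1 and MIT1 are therefore counted both here and among the relatives above. There were 104 genes in 8 lists, of which 82 were measured and tested. In the hybrid, 15 of the 82 were higher from BY, 15 were higher from RM and 52 did not pass, where 28.9% of all genes tested passed (13.7% BY and 15.2% RM). In the co-culture, 20 were higher from BY, 16 were higher from RM and 46 did not pass, where 44.0% of all genes passed (20.6% BY and 23.4% RM). In the hybrid DESeq2 called 6 from BY and 9 from RM, 8 and 8 were called without chromosome XIII genes, and between 7 and 12 from BY were called when 1 library was left out. In the co-culture DESeq2 called 6 from BY and 13 from RM, and between 8 and 17 from BY were called when 1 library was left out. The median size of the log2 ratio was 0.19 in the hybrid, against 0.27 in the co-culture, beside 0.17 in the hybrid for all genes tested, against 0.27 in the co-culture. No partner reached 8-fold in the hybrid, and 0.473% of all gene pairs reached it in both cultures in the same direction. The share of all gene pairs that reached 8-fold in a single culture was not counted. In the co-culture 1 partner reached it, the GABA and putrescine carrier gene UGA4, which is named after its values were seen. UGA4 had 6 and 9 BY reads against 3 and 7 RM reads in the hybrid, and 23 and 33 BY reads against 0 and 2 RM reads in the co-culture. Of the 10 partners on chromosome XIII, 9 were higher from RM and 1 from BY in the hybrid, while outside it 6 of 72 were higher from RM and 14 from BY. None of the 9 genes lies on chromosome XIII, and its part in the partner counts was not tested.

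Among the partners of DNF2, 7 of 9 flippases, flippase subunits and flippase kinases were measured. In the hybrid 2 were higher from BY, 4 were higher from RM and 1 did not pass, with a median log2 ratio of -0.19. DRS2, the flippase of the late Golgi, had 12 and 20 BY reads against 71 and 130 RM reads in the hybrid, and 25 and 17 BY reads against 66 and 80 RM reads in the co-culture. It leaned toward RM, opposite to DNF2, at -2.62 ± 0.24 in the hybrid (adjusted p = 1.1e-26 by edgeR) and -1.85 ± 0.24 in the co-culture (adjusted p = 1.2e-13). DNF3, on chromosome XIII, was at -0.61 ± 0.07 in the hybrid, against 0.20 ± 0.09 in the co-culture. The co-culture ratio of DNF3 passed with a mean of at least 50 reads required (adjusted p = 0.0420 by edgeR) and with shared library totals (0.0137).

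Of the other subunits of RSC, 11 of 16 were measured, and in the hybrid 2 were higher from BY, 1 was higher from RM and 8 did not pass. NPL6 was at 0.50 ± 0.08 in the hybrid, against 0.98 ± 0.10 in the co-culture, and the actin-related subunit ARP9 at -0.65 ± 0.14 in the hybrid against 0.17 ± 0.17 in the co-culture. Of the NuA4 and SWR1 subunits that work with YAF9, 18 of 22 were measured, and 2 were higher from BY, 2 were higher from RM and 14 did not pass in the hybrid. TRA1, the activator-binding subunit of NuA4, had 301 and 452 BY reads against 107 and 139 RM reads in the hybrid, and 239 and 305 BY reads against 86 and 108 RM reads in the co-culture. It leaned the same way as YAF9, at 1.63 ± 0.10 in the hybrid (adjusted p = 1.4e-57 by edgeR) and 1.43 ± 0.11 in the co-culture (adjusted p = 3.3e-34). VPS71 of SWR1 was at -0.56 ± 0.13 in the hybrid, against 0.04 ± 0.14 in the co-culture. The hybrid calls of ARP9 and VPS71 were lost with DESeq2 (adjusted p = 0.183 for ARP9 and 0.216 for VPS71) and without hybrid replicate 2 (0.0588 and 0.0648).

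Cleavage and polyadenylation factors, the partners of IPA1, were the list with the smallest median size of log2 ratio in the hybrid, 0.08. Of 20 genes, 18 were measured, and in the hybrid 0 were higher from BY, 1 (RNA14, at -0.67 ± 0.08) was higher from RM and 17 did not pass. At an unadjusted p under 0.05 in edgeR, 1 was higher from BY and 2 from RM, and DESeq2 called 0 higher from BY after adjustment. In the co-culture 1 was higher from BY, 4 were higher from RM and 13 did not pass, with PFS2, a subunit of the cleavage factor, at -0.28 ± 0.12 in the hybrid, against -0.48 ± 0.13 in the co-culture. The co-culture call of PFS2 was lost with DESeq2 (adjusted p = 0.194) and without co-culture replicate 1 (0.0694), and its hybrid ratio passed with a mean of at least 50 reads required (0.0475), with shared library totals (0.0415) and without chromosome XIII genes (0.0387). For polyamine transport, the process of PTK1, 9 of 12 genes were measured, and 4 were higher from BY, 1 was higher from RM and 4 did not pass in the hybrid. The polyamine exporter gene TPO1 had 355 and 522 BY reads against 200 and 285 RM reads in the hybrid, and 158 and 225 BY reads against 382 and 448 RM reads in the co-culture. Its ratio passed in opposite directions, at 0.88 ± 0.08 in the hybrid, against -1.17 ± 0.09 in the co-culture.

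Of the ABC transporters of the YBT1 family, 4 of 5 were measured, and 2 were higher from BY, 1 was higher from RM and 1 did not pass in the hybrid. BPT1, a vacuolar transporter, was at 0.48 ± 0.06 in the hybrid, against 0.50 ± 0.07 in the co-culture, and the drug exporter gene YOR1 at -0.65 ± 0.07 in the hybrid against -0.52 ± 0.07 in the co-culture. Of the genes of ribosome quality control, the process of SLH1, 7 of 9 were measured, and 1 was higher from BY, 2 were higher from RM and 4 did not pass in the hybrid. The 2 were ASC1 (-0.44 ± 0.02) and the ubiquitin ligase gene RKR1 (-0.87 ± 0.08), both on chromosome XIII. Of the colony and filament regulators grouped with ROF1, 8 of 11 were measured, and 2 were higher from BY, 3 were higher from RM and 3 did not pass in the hybrid. PHD1, a regulator of filamentous growth, had 117 and 198 BY reads against 51 and 44 RM reads in the hybrid, and 118 and 146 BY reads against 131 and 135 RM reads in the co-culture. Its ratio was 1.75 ± 0.16 in the hybrid (adjusted p = 2.5e-27 by edgeR) and -0.07 ± 0.13 in the co-culture (adjusted p = 0.702).

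**Figure D4:**
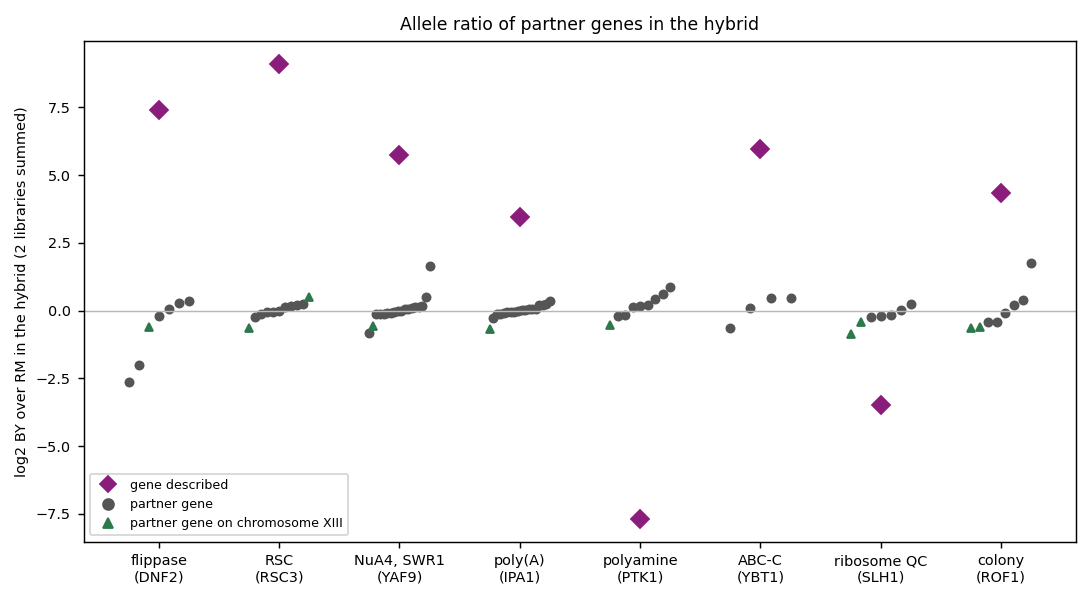
The log2 ratio of BY over RM in the hybrid for each of 8 genes (diamonds) and the measured partners on its list (circles, or triangles for chromosome XIII), ordered by value within a list; reads were summed over the 2 hybrid libraries, and an allele at 0 reads was set at 3 reads, so DNF2 and PTK1 are drawn at their lower bounds. No partner lies as far from 0 as the gene it is grouped with, which was chosen for its ratio. The partners farthest toward RM and BY are DRS2 and PHD1, fitted at -2.62 and 1.75.

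In total level, 18 of the 82 partners were higher in the hybrid, 8 were lower and 56 did not pass. Of all genes tested, 35.7% passed (17.8% higher and 17.9% lower). On chromosome XIII, 7 of 10 partners were higher, 0 were lower and 3 did not pass. Outside it, 11 of 72 were higher, 8 were lower and 53 did not pass. The part of chromosome XIII in this count was not tested.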

How the data were processed

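RNA was sequenced from 2 hybrid and 2 co-culture libraries. Per the file headers, the deposited values are the authors' raw read counts at SNP sites of 4442 orthologous gene pairs, with BY and RM reads in separate columns. Per the submitters' processing notes, CASAVA 1.8.2 and Bowtie were used; build, SNP set and alignment settings: not given in the sources used here. Per the labels' protocols, each library was split over 2 PCR reactions with different reagents, and the labels do not say which reaction or culture a library number stands for.

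Totals (BY plus RM reads) and each allele were compared between hybrid and co-culture with edgeR 4.0.16 (quasi-likelihood test with robust estimation, two-sided, TMM scaling, filterByExpr with a minimum count of 10, Benjamini-Hochberg adjustment over all genes at 0.05) in R 4.3.3. Allele ratios of genes outside the 9 were tested in a fit of all 8 allele columns with library as a block. CPM were computed from column totals. Ratios of the 9 genes came from reads summed over the 2 libraries of a culture, with an allele at 0 reads set at a floor of 3, and shares have 95% Wilson intervals. DESeq2 1.42.0, other scalings, filters and blocks, and leaving out each library were tried as alternatives. The scripts were tested on simulated data. Of the 4442 names, 4323 matched R64, which gave symbols, positions, GC content and sequences; proteins were compared with blastp 2.17.0. The sequences are RefSeq's, build R64. The named genes are the 9, their nearest measured neighbours and best-matching proteins, up to 10 other genes past 8-fold with a mean of 50 or more reads, and the 2 partners per list with the smallest p in the hybrid ratio. The 9 genes and all lists were chosen with earlier results of these data known. A neighbouring gene is not reported here.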

Additional observations from a re-analysis of the deposited data

Results flagged for a closer look

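For 15 genes among the neighbours, best-matching proteins and partners of the 9 that the naming rule picked, the ratio of BY over RM differed between the hybrid and the co-culture in edgeR's test of the difference itself. Of all genes tested, 27.6% passed it. The named partners were picked by the p of the hybrid ratio, which is part of this difference, so the count of 15 cannot be set against that share. Of the 15 neighbours, 2 had a higher hybrid ratio and 13 did not pass. Of the 5 best-matching proteins, 1 had a higher hybrid ratio, 1 a lower one and 3 did not pass. Of all 82 partners tested, 10 had a higher hybrid ratio, 15 a lower one and 57 did not pass. The values below are the log2 ratio in the hybrid minus that in the co-culture. Among neighbours they were 0.20 for PMT4 beside YJR142W and 0.76 for STB5 beside ROF1. Among the best-matching proteins they were -0.21 for DNF1, the relative of DNF2, and 1.11 for VMR1, the relative of YBT1. Among partners outside chromosome XIII they were 2.05 for TPO1 and 1.81 for PHD1. On chromosome XIII all 9 such partners were shifted toward RM in the hybrid: DNF3 by -0.81, NPL6 by -0.48, ARP9 by -0.82, VPS71 by -0.60, RNA14 by -0.52, SKY1 by -0.53, ASC1 by -0.14, RKR1 by -0.43 and MSS11 by -0.81. The partner UGA4 on chromosome IV, named after its values were seen, was at -4.01, and at -7.15 without co-culture replicate 2. LYS2 had no RM read in the hybrid, whose RM parent differs by label from that of the co-culture. Its difference was at least 9.43 at a floor of 3 reads. With DESeq2 the differences of PMT4 (adjusted p = 0.606), STB5 (0.476), DNF1 (0.771), NPL6 (0.315), ARP9 (0.372), VPS71 (0.573), RNA14 (0.326), ASC1 (0.215), RKR1 (0.358), MSS11 (0.0628) and UGA4 (0.116) did not pass. Leaving out 1 library lost the difference in at least 1 case for PMT4 (adjusted p up to 0.420 by edgeR), STB5 (0.108), DNF1 (0.350), NPL6 (0.128), VPS71 (0.116), RNA14 (0.0674), RKR1 (0.123) and UGA4 (0.0990). Without the library block PMT4 (0.150), DNF1 (0.156), VPS71 (0.0618) and ASC1 (0.343) did not pass, and with shared library totals PMT4 did not pass (0.251) while CPR5 beside RSC3 did (-0.32, adjusted p = 0.0141). DNF1 did not pass with RLE scaling (0.0624), nor PMT4 with a mean of at least 50 reads required (0.0605) or without chromosome XIII genes (0.0765). With shared library totals ASC1 was at -0.22. The difference was not tested for the 9 genes, since both ratios chose them.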

How the results depend on the processing

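With 2 libraries per culture, precision is set by counting error and by 1 library more or less, and the minor alleles of 8 of the 9 genes are too thinly read for a test. DESeq2 called 801 genes in total level, against 1544 with edgeR, 820 against 1571 for the BY allele, 505 against 1167 for the RM allele, 506 against 1233 for the hybrid ratio, 834 against 1878 for the co-culture ratio and 346 against 1178 for the difference of ratios. Leaving out 1 library gave 1199 to 1273 genes for total level, 1258 to 1363 for the BY allele, 850 to 971 for the RM allele, 693 to 1138 for the hybrid ratio, 1178 to 1789 for the co-culture ratio and 711 to 872 for the difference. At 4-fold 54 genes passed in both cultures, at 16-fold 11, and at 8-fold between 18 and 21 when 1 library was left out. Of the recomputed log2 changes of the 9 genes, 190 kept their side of the threshold, 7 came to pass it and 11 no longer passed; the sign of no called value turned, and the cause was not tested. Over all alternatives the adjusted p of YBT1's total ranged between 6.4e-05 and 0.152, and that of YJR142W between 0.00211 and 0.215. Without co-culture replicate 1 the RM share of YBT1 in the co-culture was 0.917%, below the interval of the summed value, and single libraries of RSC3, YJR142W, PTK1 and ROF1 held no read of the minor allele. Of 1293 recomputed ratios and differences of the named genes outside the 9, 1211 kept their side of the threshold, 9 came to pass it and 73 no longer passed. Of 432 recomputed counts over partner lists, 344 stayed within 1.5 times and 88 did not. Fits without the genes of chromosome XIII, and the alternatives for the difference of ratios, for the shares and for libraries left out at 8-fold, were added after seeing the data; without chromosome XIII, 1355 genes passed in total level and 950 for the hybrid ratio.

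The replicate numbers are shared by hybrid and co-culture, but the labels do not tie them to a common culture or reaction. Over 3869 genes the differences between replicates 1 and 2 of the hybrid and of the co-culture correlated at r = 0.318. With the replicate number as a block, 2003 genes passed in total level, 1924 for the BY allele, 1486 for the RM allele, 1229 for the hybrid ratio, 1867 for the co-culture ratio and 1165 for the difference. PTK1 passed under this block, in total (0.26, adjusted p = 0.0115 by edgeR) and for its RM allele (0.23, adjusted p = 0.0401), and YBT1 and YJR142W passed in both fits.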
